A study of Mus musculus with 6 samples.

Results

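The S100 calcium-binding protein genes were followed in RNA-seq libraries of ErbB2-driven mouse mammary tissue, as 10 genes taken by symbol (S100a1, S100a4, S100a6, S100a8, S100a9, S100a10, S100a11, S100a13, S100a14 and S100a16) from the 55385 genes of the deposited tables. The family was selected with its control and DMHCA counts and TPM already known, so the difference between the groups is described for these genes and is not offered as a test of them. All 10 genes had enough reads to enter the comparison, which took 19535 genes in all.

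Both groups were female NeuT/ATTAC mice, which carry an activated rat ErbB2[V664E] transgene driven by the MMTV promoter and an FKBPv-caspase-8 fusion driven by the FABP4 promoter. MMTV directs the oncogene mainly to mammary epithelium, and FABP4 directs the caspase to fat cells, although this promoter is also used by some macrophages. The dimerizer AP20187 switches the caspase on and was given at 0.4 mg/kg by injection from 6 weeks of age, so that part of the mammary fat is replaced by fibrous tissue. The treated mice also ate a diet with 0.05% DMHCA, a sterol derivative that activates LXR, the oxysterol receptor, equal to about 100 mg/kg, from 8 weeks of age. The labels call the controls' treatment "AP20187 Vehicle", which can be read as the dimerizer in its vehicle or as the vehicle alone, and the study's methods were followed in taking both groups as dimerizer-treated. The labels name the tissue as fibrosis of the mammary gland, whereas the study describes tumors. No strain-matched tissue without the oncogene or without AP20187 was part of the comparison.

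Each group had 3 libraries of 46.4 to 63.4 M reads counted on genes. DMHCA libraries 1 and 3 were far more alike than any other pair, with a biological coefficient of variation of 0.0242 against 0.264 to 0.372 in the other 5 pairs within a group, and 18.2% of genes differing between them against 82.0% to 87.0%. They were therefore summed and counted as 1 sample, which left 3 control samples and 2 DMHCA samples. The study describes the tumors as coming from separate mice, 3 in each group, and the labels number the libraries without naming mice. Luminal epithelial genes marked the tissue in every sample, as Epcam stood at 60366 to 111731 normalized counts, whereas the neutrophil gene Ly6g had 0 to 3 reads per library and Csf3r, also used by other myeloid cells, 230.6 to 319.6 normalized counts. Of 7 canonical LXR target genes, 6 were higher with DMHCA without overlap, as were 13.1% of all genes, Lpcat3 overlapped, and none passed adjustment by edgeR (adjusted p of at least 0.648) (Srebf1 at 24083 ± 6243 against 95926 ± 26901 normalized counts, SD, n = 3 and 2 samples).

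S100 proteins are small proteins that bind calcium through a pair of EF-hand loops, mostly as dimers, and then expose a surface that grips other proteins. Inside cells they act on annexins, myosins and other cytoskeletal partners, and several are released and bind receptors such as RAGE and TLR4. S100A8 and S100A9 form the heterodimer calprotectin, abundant in neutrophils and myeloid cells and a marker of inflamed tissue, and S100A4 is known from fibroblasts and invasive tumor cells. In mouse, most of the genes stand side by side on chromosome 3.

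All 10 genes lie on chromosome 3 between positions 90511034 and 93564643 of GRCm38. S100a6 occupies chr3:90612882-90624181 on the plus strand, S100a8 chr3:90668978-90670035 on the plus strand and S100a9 chr3:90692632-90695721 on the minus strand, and the expected counts were taken over their exons, coding sequence and untranslated ends included. S100a1 (chr3:90511034-90514392, minus strand) and S100a13 (chr3:90514435-90524581, plus strand) point away from each other, and their RefSeq start sites are 105 bases apart. The promoter windows of 4 genes are given because the results turn on them, S100a6 for the largest difference without overlap, S100a8 and S100a9 for the pair that parted in 1 library, and S100a13 because its window also holds the S100a1 start, with which it shares 204 bases. Each runs from 250 bases before to 50 bases after the RefSeq start on GRCm38.p6, 5′ to 3′ on the strand of the gene, and capitals mark a TATAAA box or a C/EBP motif (TTNNGNAA) on either strand. The windows are chr3:90612644-90612943 (plus) for S100a6, chr3:90668821-90669120 (plus) for S100a8, chr3:90695672-90695971 (minus) for S100a9 and chr3:90514185-90514484 (plus) for S100a13.
S100a6: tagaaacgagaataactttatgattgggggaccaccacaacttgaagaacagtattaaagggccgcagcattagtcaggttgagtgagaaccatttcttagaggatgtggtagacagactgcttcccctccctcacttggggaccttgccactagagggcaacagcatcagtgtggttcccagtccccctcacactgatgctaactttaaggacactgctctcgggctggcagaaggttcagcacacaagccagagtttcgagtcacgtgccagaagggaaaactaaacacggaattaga
S100a8: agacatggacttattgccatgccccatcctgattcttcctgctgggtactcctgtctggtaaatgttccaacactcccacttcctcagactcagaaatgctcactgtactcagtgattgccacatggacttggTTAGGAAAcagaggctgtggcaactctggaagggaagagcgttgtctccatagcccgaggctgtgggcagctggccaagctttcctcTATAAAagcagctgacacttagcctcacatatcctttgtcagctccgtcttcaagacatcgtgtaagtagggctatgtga
S100a9: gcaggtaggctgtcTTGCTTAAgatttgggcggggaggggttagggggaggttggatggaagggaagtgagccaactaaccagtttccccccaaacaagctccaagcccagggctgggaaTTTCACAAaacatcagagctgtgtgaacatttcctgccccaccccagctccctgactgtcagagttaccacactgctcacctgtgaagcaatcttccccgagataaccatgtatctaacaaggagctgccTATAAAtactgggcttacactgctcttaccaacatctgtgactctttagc
S100a13: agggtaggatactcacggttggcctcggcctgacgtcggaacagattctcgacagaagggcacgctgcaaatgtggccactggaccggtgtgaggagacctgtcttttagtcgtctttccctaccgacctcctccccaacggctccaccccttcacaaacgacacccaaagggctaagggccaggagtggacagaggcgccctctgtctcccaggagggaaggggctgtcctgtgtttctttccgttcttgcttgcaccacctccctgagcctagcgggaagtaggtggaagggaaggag

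The window of S100a8 held a TATAAA box starting at position -30 from the RefSeq start and a C/EBP motif at position -117. In the S100a9 window TATAAA started at position 0 and C/EBP motifs at positions -236 and -130, the latter pair on the opposite strand. The windows printed for S100a6 and S100a13 held none of the motifs searched. RefSeq windows were at hand for 8 of the 10 genes, 9 windows in all, with none matched for S100a10 and S100a14. Of those 8 genes, 3 held TATAAA (S100a4, S100a8 and S100a9) and 2 the C/EBP motif, while 13.6% and 40.7% of all 32851 windows of the same length did. The AP-1 motif TGANTCA was found in S100a11 and S100a16 (7.81% of all windows), and the nuclear receptor motif AGGTCA in S100a4, S100a11 and S100a16 (16.3%). AGGTCA repeated with 4 bases between, the arrangement to which LXR and RXR bind, was in 0 of the 9 windows and in 0.0152% of all windows, both strands being searched for every motif. These are exact matches of letters within a short window, and sequence outside it was not searched. The spaced repeat is so rare that its absence from 9 windows says nothing about LXR binding. The study marks S100a9 as holding an LXR response element, citing an earlier report.

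On the TPM scale, which divides by transcript length and so allows genes to be set side by side, the family spanned from 1374 for S100a11 to 20.1 for S100a9 in the control mean. Between them came S100a6 at 793.4, S100a10 at 435.5, S100a1 at 428.8, S100a16 at 317.1, S100a13 at 102.8, S100a4 at 50.3, S100a14 at 29.7 and S100a8 at 22.7 TPM. Neighbours in this order overlapped among the 3 control libraries, other than S100a6 above S100a10 and S100a16 above S100a13. The summed TPM of the 10 genes was 3382, 4445 and 2896 in control libraries 1 to 3 and 1654, 2514 and 1626 in DMHCA libraries 1 to 3, so that the groups did not overlap. S100a11 alone supplied the most of this sum, at 989.2 to 1590 TPM in controls and 773.5 to 1236 TPM with DMHCA.

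**Figure D1:**
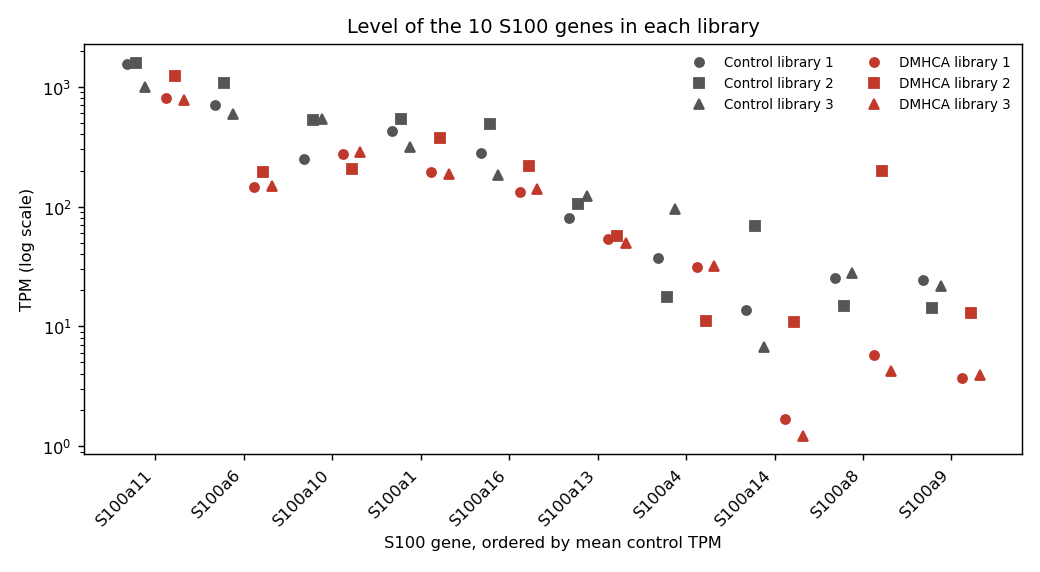
TPM (log axis) of each S100 gene in the 3 control libraries (grey) and the 3 DMHCA libraries (red), with marker shape giving the library number. DMHCA libraries 1 and 3, which were counted as 1 sample elsewhere, sit together for every gene, and S100a8 at 198.7 TPM in DMHCA library 2 stands above the 14.9 to 28.0 TPM of the controls.

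By edgeR's quasi-likelihood test with Benjamini-Hochberg adjustment, 0 of 19535 genes had an adjusted p under 0.05 (0%), the smallest adjusted p being 0.648, and 1480 had an unadjusted p under 0.05. DESeq2 on the same 5 samples called 244 of 35428 genes, S100a6 being the one member among them. Normalized counts of the family were lower on average with DMHCA for 9 of the 10 genes and higher for S100a8, and the median log2 fold change was -1.15, against -0.05 over all genes tested. Control and DMHCA samples did not overlap for 4 genes (S100a1, S100a6, S100a9 and S100a13), all lower with DMHCA, where 12.7% of all genes were lower and 13.1% higher without overlap. The unadjusted p of edgeR was under 0.05 for S100a6, S100a9 and S100a13 (3 genes), beside 4.22% of all genes lower and 3.36% higher. As the family was selected on this contrast, nothing is read from these shares. On the TPM scale, where all genes together were shifted by 0.11 on the log2 scale, the samples of 3 genes did not overlap (S100a6, S100a9 and S100a13, all lower), beside 7.03% of all genes lower and 20.2% higher.

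**Figure D2:**
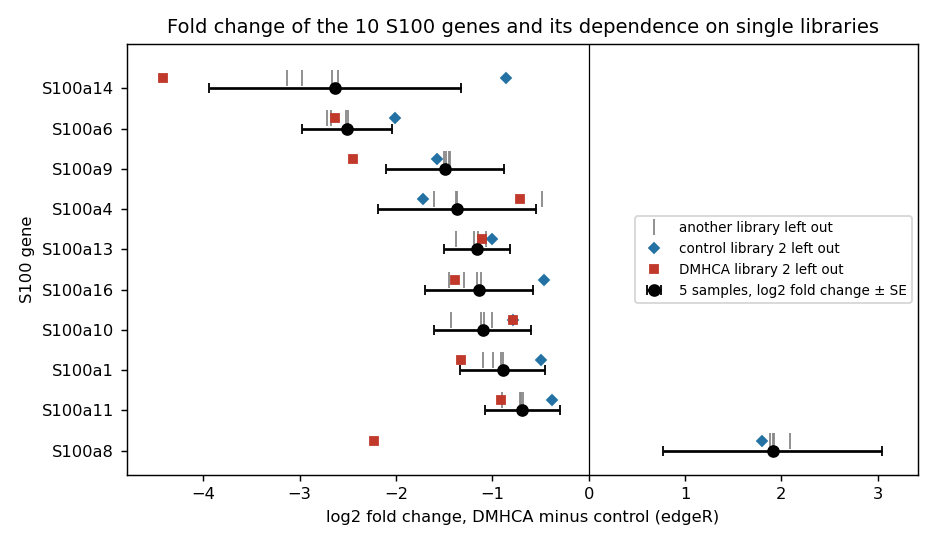
Log2 fold change of each S100 gene, DMHCA minus control (black points, bars ± SE, 3 control and 2 DMHCA samples), with the value after leaving out control library 2 (blue), DMHCA library 2 (red) or another library (grey ticks). S100a6 stays between -2.72 and -2.01, whereas S100a8 moves from 1.91 to -2.23 without DMHCA library 2.

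S100a6 (calcyclin), which binds the ubiquitin-ligase adaptor CacyBP and is raised in many dividing and epithelial cells, showed the largest difference among the genes without overlap. Its normalized counts were 11404, 24122 and 10563 in control samples 1 to 3, 2412 in the summed DMHCA sample and 2985 in DMHCA sample 2. Every control was more than 3 times above both DMHCA samples, and the spread lay almost wholly among the controls (15363 ± 7597 against 2699 ± 405.3, SD, n = 3 and 2). The log2 fold change was -2.51 ± 0.47 (SE), and leaving out single libraries kept it between -2.72 and -2.01. The genes with the most similar profile over the 5 samples, among 12162 genes of at least 300 normalized counts, were Sdcbp2, a syntenin (root mean square difference of centred log2 CPM 0.133), Sspn, or sarcospan (0.161), and Chrnb1, a subunit of the acetylcholine receptor (0.274). Sdcbp2 had 530.5, 1378 and 547.9 normalized counts in controls and 128.3 and 181.5 with DMHCA, with its highest value in control sample 2 as for S100a6.

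S100a13, which aids the release of FGF1 and interleukin-1α by a route outside the classical secretory pathway, was the steadiest member with DMHCA. Its normalized counts were 1610, 2964 and 2794 in the controls and 1101 and 1089 in the DMHCA samples, with a log2 fold change of -1.16 ± 0.34. The range without single libraries was -1.38 to -1.0. S100a1, its head-to-head neighbour and best known from heart and skeletal muscle, had 7983, 14105 and 6631 normalized counts in controls and 3721 and 6585 with DMHCA. The lowest control and DMHCA sample 2 were thus nearly level, and on the TPM scale they overlapped (315.8 in control library 3, 370.1 in DMHCA library 2). The log2 fold change of S100a1 was -0.89 ± 0.44, and it was -0.49 without control library 2. Of the proteins that S100A13 helps to export, Fgf1 (94.7 to 924.1 normalized counts in controls, 80.8 and 107.7 with DMHCA) and Il1a (64.5 to 113.1, and 59.8 and 139.9) overlapped between the groups.

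S100a8 and S100a9, whose proteins pair as calprotectin, were near level with each other in 5 of the 6 libraries and parted in 1. The ratio of S100a8 to S100a9 on the TPM scale was 1.04, 1.05 and 1.28 in control libraries 1 to 3, 1.56 and 1.07 in DMHCA libraries 1 and 3, and 15.4 in DMHCA library 2. Normalized counts of S100a8 were 288.8, 241.1 and 370.7 in the controls, 61.9 in the summed DMHCA sample and 2201 in DMHCA sample 2. The controls thus lay between both DMHCA samples, one lower and the other higher, and the mean of the DMHCA group (1132 ± 1513) describes neither. The fitted log2 fold change of 1.91 ± 1.14 rested on that library, and it was -2.23 without it. Normalized counts of S100a9 were 303.3, 250.7 and 312.0 in the controls, the narrowest control range of the 10 genes on the log2 scale, and 51.3 and 154.6 with DMHCA. Both DMHCA samples were under every control (288.6 ± 33.2 against 103.0 ± 73.0), with a log2 fold change of -1.49 ± 0.61, or -2.45 without DMHCA library 2.

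The reads of this pair were set beside the neutrophil markers, since neutrophils are the best-known source of calprotectin. Ly6g had 0 to 3 reads in any library, Elane 1 to 2, Mpo 1 to 6 and Camp 0 to 12, while S100a8 had 50 to 2207 and S100a9 51 to 315. Other genes of the list were nearer to the level of S100a9, as Csf3r was at 230.6 to 319.6, Cxcr2 at 46.3 to 310.9 and Mmp9 at 80.5 to 319.6 normalized counts. Without Ltf, which mammary epithelium also makes, the neutrophil list summed to 798.1, 510.9 and 1144 normalized counts in the controls and 458.9 and 598.5 in the DMHCA samples, which overlapped. Of its 13 genes 9, Ltf included, had enough reads, and all 9 had a lower mean with DMHCA (median log2 fold change -1.44), Retnlg and Trem1 without overlap, where 10401 of all 19535 genes had a lower mean and 12.7% were lower without overlap. The part of neutrophils in the S100a8 and S100a9 values was not tested. In DMHCA sample 2, where S100a8 was highest, Csf3r (261.3), Cxcr2 (77.8), Mmp8 (19.0) and Mmp9 (184.5) were within the control range. The rest of the tested list was below every control there, namely Retnlg (7.98), Trem1 (42.9), Ngp (0.997), Camp (0.0) and Ltf (2380). The sum of the list without Ltf in that sample, 598.5, was within the control range, and with Ltf it was 2979, below every control (3587 to 239445). The genes most like S100a8 over the 5 samples were Cidea (0.508), Tbx2 (0.622) and the unnamed gene Gm32742 (0.667), each highest in the same sample, with Cidea, a lipid-droplet gene of brown fat and lactating mammary epithelium, at 1300 normalized counts there and 99.1 to 317.7 elsewhere. Those most like S100a9 were Clu (0.277), Tnc (0.293) and Dclk1 (0.331), and the distance from S100a8 to S100a9 itself was 1.5.

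**Figure D3:**
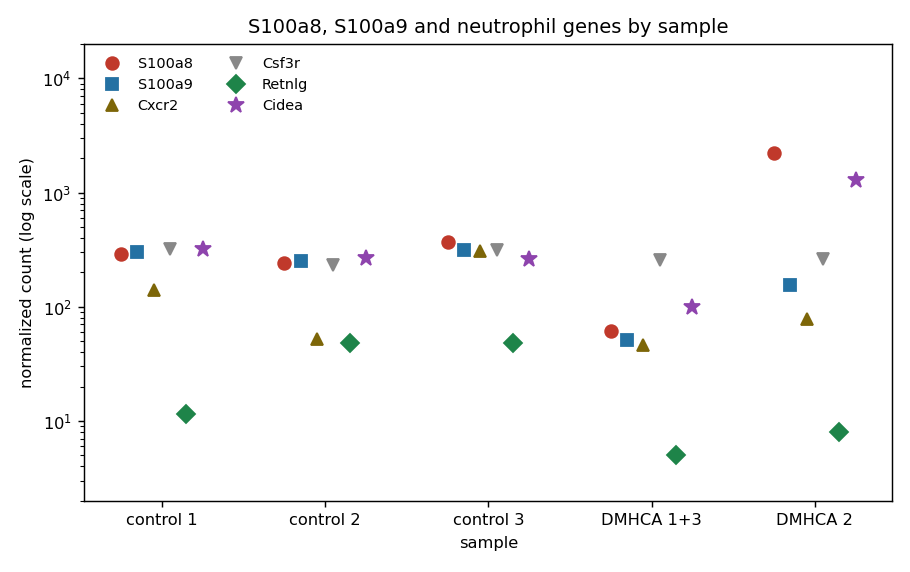
Normalized counts (log axis) of S100a8, S100a9, the neutrophil genes Cxcr2, Csf3r and Retnlg, and Cidea in the 3 control samples, the summed DMHCA sample (1+3) and DMHCA sample 2, 1 point per gene and sample. S100a8 and S100a9 lie together in 4 samples and part in DMHCA sample 2, at 2201 and 154.6, where Cidea is also highest and Csf3r is at 261.3.

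S100a10 and S100a11, the annexin-binding members, were among the most abundant and overlapped between the groups. S100a10, which forms a tetramer with annexin A2 at the cell membrane, had 4728, 13892 and 11445 normalized counts in controls and 5638 and 3705 with DMHCA. Control sample 1 was the exception, lying between both DMHCA samples (log2 fold change -1.10 ± 0.50). S100a11, which binds annexin A1, had 19120, 27814 and 14095 in controls and 10512 and 14786 with DMHCA. DMHCA sample 2 lay above the lowest control, and the log2 fold change of S100a11 was -0.69 ± 0.39, or -0.38 without control library 2. Expected counts of S100a11 were not whole in any of the 6 libraries, which means that RSEM divided some of its reads with another locus, although its annotated pseudogene S100a11-ps was credited with 0 reads.

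S100a16, a widely expressed member, and S100a14, an epithelial member, followed control sample 2. Normalized counts of S100a16 were 9077, 21215 and 6385 in controls and 4535 and 6588 with DMHCA, where DMHCA sample 2 was just above the lowest control. Its log2 fold change was -1.14 ± 0.56, and -0.46 without control library 2. Normalized counts of S100a14 were 459.2, 2686 and 204.4 in controls and 50.3 and 311.2 with DMHCA, so that the group means (1117 ± 1365 against 180.8 ± 184.5) are each set by 1 high sample. The log2 fold change of S100a14, the most negative of the 10 genes at -2.63 ± 1.31, was -0.86 without control library 2 and -4.42 without DMHCA library 2. The genes most like S100a14 were Il17b (0.343), Tnnt2 (0.48) and Nt5e (0.517), and Tnnt2, a cardiac troponin, was at 9635 normalized counts in control sample 2 and at 1109 or less in the others.

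S100a4 (metastasin), which binds non-muscle myosin and is used as a fibroblast marker, had a pattern of its own. Its normalized counts were 445.7, 293.7 and 1312 in the controls and 403.1 and 126.7 with DMHCA. The highest value was in control sample 3 and the lowest control was below the summed DMHCA sample, so the groups overlapped (log2 fold change -1.37 ± 0.82). The value was -0.48 without control library 3 and -0.71 without DMHCA library 2. Its myosin partners Myh9 (29934 to 49850 normalized counts in controls, 44407 and 51160 with DMHCA) and Myh10 (1006 to 2410, and 1962 and 1798) also overlapped. An exon of the unnamed gene Gm42674 overlaps S100a4 on the same strand, with 0 to 2 reads per library.

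The spread within the groups was shared by part of the family. Control sample 2 was the highest control for 7 of the 10 genes (S100a1, S100a6, S100a10, S100a11, S100a13, S100a14 and S100a16) and control sample 3 for the other three, S100a4, S100a8 and S100a9. The summed DMHCA sample was the lowest of the 5 samples for 7 genes (S100a1, S100a6, S100a8, S100a9, S100a11, S100a14 and S100a16), and DMHCA sample 2 for S100a4, S100a10 and S100a13. Between the lowest and highest control the distance on the log2 CPM scale ran from 0.31 for S100a9 to 3.71 for S100a14, with 2.15 for S100a4. Between both DMHCA samples it ran from 0.02 for S100a13 and 0.31 for S100a6 to 2.59 for S100a14 and 5.12 for S100a8.

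**Figure D4:**
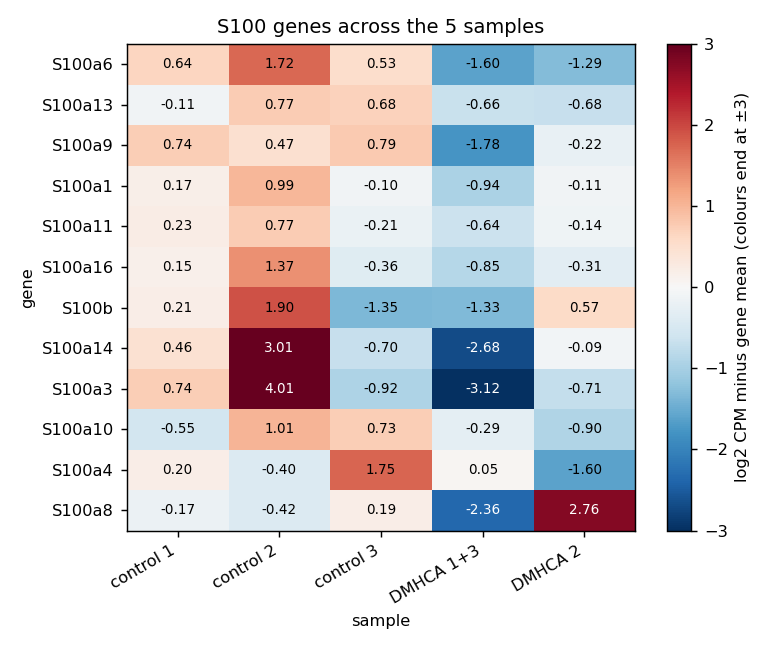
Centred log2 CPM of the 10 S100 genes with S100b and S100a3, each row being 1 gene minus its own mean over the 5 samples. Control sample 2 is red for most rows (1.72 for S100a6, 3.01 for S100a14), the summed DMHCA sample is blue for all rows but S100a4 (0.05), and S100a8 is red in DMHCA sample 2 (2.76) and blue in the summed DMHCA sample (-2.36).

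Of the other 8 S100 genes, 5 had enough reads to be tested. S100b, known from glia, melanocytes and fat cells, had 1667, 5392 and 562.1 normalized counts in controls and 573.1 and 2131 with DMHCA, which overlapped widely. Its log2 fold change was -0.91 ± 0.97, and 0.29 without control library 2. S100a3, best known from hair, was at 52.0, 513.7 and 15.2 in controls and 2.01 and 18 with DMHCA, again with its highest value in control sample 2 (log2 fold change -4.32 ± 1.83, and -1.80 without control library 2). S100a7a was scarce at 14.4, 27.7 and 47.8 in controls and 9.06 and 2.99 with DMHCA, the only one of the 5 without overlap (12.7% of all genes were lower in this way). S100a2 (22.8 to 75.6 in controls, 30.9 and 50.3 with DMHCA) and S100g (3.83 to 22.1, and 5.98 and 24.7) overlapped. S100a5 and S100a7l2 were listed at 0 in every library, and S100z reached 1.09 normalized counts at most.

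Receptors and intracellular partners of S100 proteins were described as a list of 31 genes, all with enough reads. By edgeR's test 0 of the 31 had an adjusted p under 0.05. DESeq2 on the same samples called 3 (Alcam, Anxa1 and Ahnak), beside 244 of 35428 genes in all. The groups did not overlap for 11 genes lower and 1 higher with DMHCA, the unadjusted p of edgeR was under 0.05 for 5 lower and 1 higher, and the median log2 fold change was -0.46. Over all genes, 12.7% were lower and 13.1% higher without overlap, and 4.22% lower and 3.36% higher by the unadjusted p. The count of 6 by the unadjusted p was 3 without DMHCA library 2.

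Among the 9 receptors, 4 were lower without overlap, as were 12.7% of all genes. The other receptors overlapped. Of these, Bsg (log2 fold change -0.17 ± 0.6), Ly96 (-0.46 ± 0.48), Cd36 (-1.69 ± 0.93) and Emb (-1.18 ± 1.12) had a lower mean with DMHCA, and Mcam (0.19 ± 0.32) a higher one. Alcam, an adhesion molecule that has been described as an S100 receptor, had 1152, 524.3 and 1648 normalized counts in controls and 251.1 and 201.5 with DMHCA (log2 fold change -2.29 ± 0.56). The calprotectin receptors Tlr4 and Ager showed smaller differences, as Tlr4 was at 1458, 1232 and 2173 in controls and 1190 and 726.2 with DMHCA (-0.76 ± 0.38), and Ager, which encodes RAGE, at 95.3, 96.6 and 118.5 and at 88.6 and 55.9 (-0.52 ± 0.51). Nptn was at 6746, 10636 and 8134 in controls and 5850 and 5341 with DMHCA. The gap between the groups was narrow for Tlr4 and Ager, whose nearest control and DMHCA samples were 1232 and 1190, and 95.3 and 88.6.

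Beside 12.7% of all genes lower and 13.1% higher without overlap, 7 of the 22 intracellular partners were lower and 1 was higher in this way. The annexin partners of S100A10 and S100A11 were among them, as Anxa2 had 14817, 41324 and 21084 normalized counts in controls and 11145 and 9607 with DMHCA (-1.31 ± 0.49), and Anxa1 had 14263, 21269 and 20691 and 6484 and 3735 (-1.87 ± 0.39). Ahnak, a giant scaffold protein that binds the S100A10 and annexin A2 complex, had 35239, 44486 and 42676 in controls and 17083 and 12880 with DMHCA (-1.45 ± 0.33). For Anxa1 and Ahnak the lowest control was more than 2 times the highest DMHCA sample. Cacybp, the partner of S100A6, was at 4742, 6748 and 4715 in controls and 3532 and 4019 with DMHCA (-0.52 ± 0.28), a much smaller difference than that of S100a6. Subunits of the phagocyte NADPH oxidase, to which calprotectin delivers arachidonic acid, were lower without overlap for Cyba (-1.32 ± 0.44) and Ncf1 (-0.83 ± 0.46), while Cybb overlapped. Ppp5c, a phosphatase that S100 proteins can activate, was the gene higher without overlap, at 1779 to 2578 in controls and 3469 and 3513 with DMHCA (0.64 ± 0.25). Anxa6, Anxa11, Trp53, Mdm2 and Stk38, which also bind S100 proteins, differed by between -0.03 and 0.29 on the log2 scale with overlap.

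**Figure D5:**
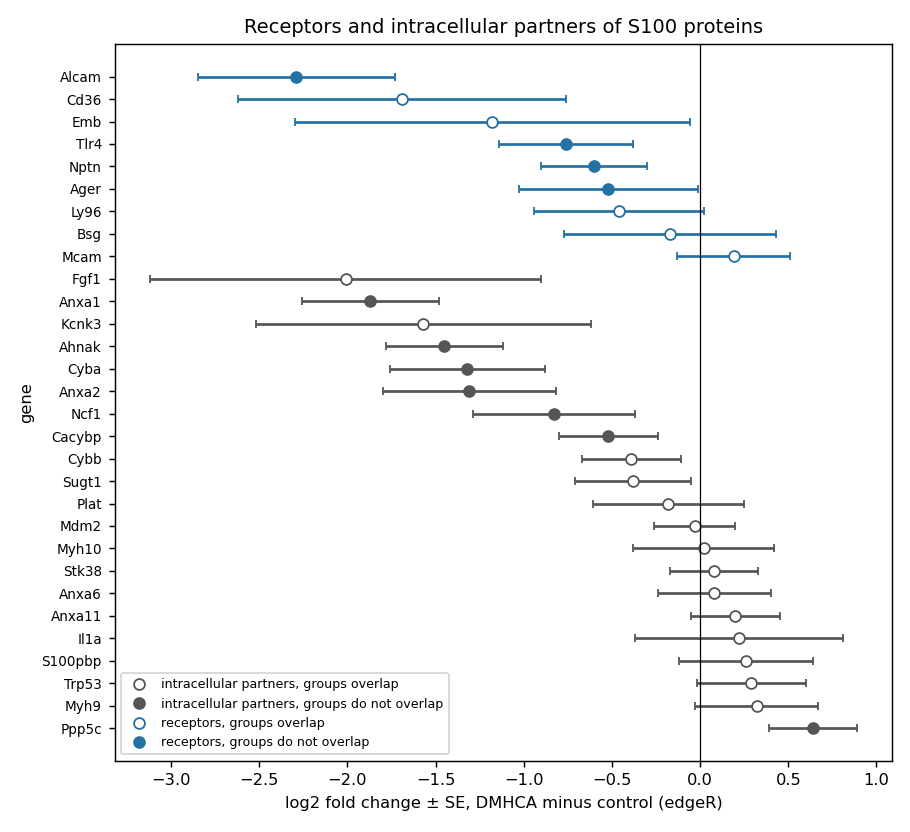
Log2 fold change ± SE, DMHCA minus control, of 9 receptors (blue) and 21 of the 22 intracellular partners (grey) of S100 proteins, filled where the 3 control and 2 DMHCA samples do not overlap. Alcam at -2.29, Anxa1 at -1.87 and Ahnak at -1.45 are the lowest filled points, and Ppp5c at 0.64 is the one filled point above 0.

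The makeup of the samples differed beside these genes. In tissue, fewer cells of a type and less RNA per cell cannot be told apart. Adipocyte markers were lower with DMHCA without overlap for 8 of 8 genes, their sum being 11808 to 68787 normalized counts in controls and 3654 and 5803 with DMHCA. Macrophage markers summed to 60470 to 112325 in controls and 43897 and 59282 with DMHCA, again without overlap, but without Lyz2 the sums were 36262 to 48811 and 29581 and 39732, which overlapped. Of the 12 macrophage genes 3 were lower without overlap (12.7% of all genes were), while Csf1r, Adgre1 and Cd68 overlapped. Luminal markers (228366 to 331433, and 273365 and 310912), basal markers (4201 to 14114, and 4053 and 6304), fibroblast markers (69819 to 167827, and 101788 and 111646) and keratinocyte markers (368.3 to 830.6, and 516.7 and 850.9) overlapped as sums. Of the 10 luminal genes, Krt7, Cldn4 and Esr1 were lower and Krt8 was higher without overlap, and Krt7, at 9266, 19889 and 5403 in controls and 3093 and 3773 with DMHCA, was highest in control sample 2 like 7 of the S100 genes. All 8 basal genes had a lower mean with DMHCA (median log2 fold change -1.34), Trp63 without overlap, and of the 10 fibroblast genes Fap alone was lower without overlap, at 436.1, 465.9 and 1060 in controls and 289.8 and 393.0 with DMHCA. B and T cell markers ranged from 163.6 to 22452 in controls, highest in control sample 3, and were 307.2 and 543.0 with DMHCA. Skeletal muscle markers, set beside S100a1, were at 25709 to 52004 in controls, highest in control sample 2, and at 38181 and 8666 with DMHCA. S100a1 was highest in the control with the most muscle RNA, and between the DMHCA samples it was lower in the one with more. The summed glial and melanocyte list was higher with DMHCA (30356 and 30794 against 13583 to 25418), most of it Sox10 (12869 to 24965 in controls, 30223 and 30513 with DMHCA), while Mlana, beside which S100b can be read, was lower without overlap. The part of any of these cell types in the S100 values was not tested.

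The chromosome 3 interval from the first to the last member spans 3.05 Mb and 121 annotated genes, of which 22 had enough reads, 13 of them S100 genes. Among the 9 that are no S100 genes, the groups did not overlap for Sprr1a, Gm37913 and Tchh, lower with DMHCA, and for Gm37245, higher, beside 12.7% and 13.1% of all genes. The 9 genes' median log2 fold change was -0.27. All 4 were scarce, with at most 87.0 normalized counts in any sample. Tchh, which carries an S100-like domain fused to a long hair-follicle protein, was at 35.6, 11.5 and 79.4 in controls and 11.1 and 1.99 with DMHCA, and the other fused S100 genes (Flg, Flg2, Hrnr, Rptn, Tchhl1 and Crnn) had too few reads to enter the comparison.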

How the data were processed

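RNA was extracted from snap-frozen tissue and sequenced as 6 libraries. Per the submitters' processing notes and the study's methods, the authors trimmed reads with Cutadapt (2.9) and counted them with RSEM (1.3.1) on a Bowtie2 (2.4.1) index of the mouse genome (GRCm38, mm10). The expected counts deposited by the authors are estimates of reads per gene without normalization, in which a read matching several genes is divided between them. The deposited TPM values were scaled by RSEM for length and library size, and the FPKM values were not used. The setting for strand is not given in the sources used here.

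Expected counts were rounded to whole numbers, and DMHCA libraries 1 and 3 were summed. The 5 samples entered edgeR (version 4.0.16, under R 4.3.3) with filterByExpr at its defaults (10 reads, 15 in total) and TMM (glmQLFit, quasi-likelihood F-test, Benjamini-Hochberg adjustment over all 19535 genes tested). Normalized counts refer to a library of mean effective size, the summed pair being counted as 1 library. Standard errors are those of the fitted log2 fold change. Likeness of profiles was the root mean square difference of centred log2 CPM (prior count 2). The fit was also run on simulated counts with known fold changes as a check of the code, and no result here rests on it. DESeq2 1.42.0, edgeR on 6 libraries with and without the replicate number, DESeq2 size factors, other filters, TPM with pseudocounts of 1 and 0.1, and leaving out each library were the alternatives, and the overlap of groups without single samples and on the TPM scale was added after the data were seen. Gene positions are from GENCODE mouse release M21 on GRCm38 and promoter windows from RefSeq (GRCm38.p6). The members and all gene lists were chosen with earlier results of these data known. Genes named are the 10 members, other S100 genes with a count, receptors and partners without overlap or with an unadjusted p under 0.05 and further partners chosen after their values were seen, up to 4 abundant genes per cell-type list with other markers also chosen after their values were seen, the 3 most alike genes for S100a6, S100a8, S100a9 and S100a14, and neighbours on chromosome 3 without overlap. Some genes that this rule covers are counted in their lists but not reported here by name.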

Additional observations from a re-analysis of the deposited data

How the results depend on the processing

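The number of genes with an adjusted p under 0.05, 0 in the comparison reported, was 244 of 35428 by DESeq2 on 5 samples. By DESeq2 on 6 libraries, in which both near-identical libraries count as separate samples, it was 865 of 35428. With no filter on low counts it was 16 of 35428. It was 0 with DESeq2 size factors, with a mean of at least 300 normalized counts, on 6 libraries without a replicate block, with the replicate block, and without any single library. Receptors and partners called numbered 3 by DESeq2 on 5 samples and 3 on 6 libraries, and 0 otherwise, and the 6 with an unadjusted p under 0.05 became 3 without DMHCA library 2 and 12 with the replicate block. DESeq2 gave S100a6 an adjusted p of 0.00121 on 5 samples, and on 6 libraries it also called S100a9, S100a13 and S100a14 (largest adjusted p 0.0345).

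The median log2 fold change of the 10 members was -1.41 to -0.82 without single libraries, -1.05 with the replicate block, -0.83 on the log2(TPM + 1) scale and -0.84 on the log2(TPM + 0.1) scale. A lower mean with DMHCA was found for 9 of 10 members in most alternatives, for 8 of 9 under the filter of 300 normalized counts, which left out S100a9, and for all 10 without DMHCA library 2 or with the replicate block. Deviations of same-numbered libraries from their group means correlated at -0.115, 0.361 and 0.411. Since DMHCA libraries 1 and 3 are near identical, these values cannot tell whether the numbers pair samples. No pairing was used in the comparison reported. Members lower with DMHCA without overlap numbered 4 (12.7% of all genes), and 5 without control sample 1 (18.5%) or 2 (22.3%), 7 without control sample 3 (17.2%), 6 without the summed DMHCA sample (29.6%), 8 without DMHCA sample 2 (25.8%) and 3 on the TPM scale (7.03%). Higher without overlap was 1 member, S100a8, without the summed DMHCA sample (27.5% of all genes).

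The direction of S100a8 turned to -0.95 with the replicate block and to -2.23 without DMHCA library 2 (range without single libraries -2.23 to 2.09). S100a2 turned to 0.05 by DESeq2 on 6 libraries, 0.04 and 0.22 by edgeR on 6 libraries without and with the replicate block, 0.66 without control library 2 and 0.29 without DMHCA library 2 (-0.36 to 0.66), and S100b to 0.29 without control library 2 (-2.10 to 0.29). The cause was not tested. Without single libraries S100a14 ranged from -4.42 to -0.86, S100a3 from -6.47 to -1.80, S100a9 from -2.45 to -1.44 and S100a4 from -1.72 to -0.48. With 1 DMHCA sample left, that sample was assumed to vary like the controls. The 2 DMHCA samples limit every value here. Low depth, under 100 normalized counts in most samples, also limits the values of S100a2, S100a3, S100a7a and S100g.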
